A study of Macaca mulatta with 51 samples.

Results

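FGF21, its co-receptor beta-klotho (KLB) and the FGF receptors FGFR1, FGFR2, FGFR3 and FGFR4 were followed in adipose tissue (AT) and skeletal muscle (SM) of diet-induced obese (DIO) rhesus macaques. The genes were taken from the count table by symbol, and all 6 were found among its 16033 genes. The animals were 10 obese, non-diabetic macaques, 5 males and 5 ovariectomized females aged 11 to 22 years, that had eaten a diet high in fat and sucrose for at least 2 years. All received native human FGF21 protein under the skin every day for 12 weeks, with a daily dose that was raised from 10 to 1000 ug/kg in 9 animals and stopped at 300 ug/kg in 1 animal. Punch biopsies of subcutaneous abdominal AT and of gastrocnemius SM were taken before the first dose (pre-treatment), at the end of dosing (post-treatment) and 16 weeks after dosing stopped (washout). No untreated animals were sampled, so each animal's pre-treatment biopsy served as the control and time on study could not be told apart from treatment. The authors report that the animals lost weight during dosing and regained it during washout. Responses to that weight loss could not be told apart from those to FGF21 either. FGF21 was injected as protein, and the counts of FGF21 below are those of the animals' own transcript. The count table pairs the symbols with human Ensembl identifiers: ENSG00000105550 for FGF21, ENSG00000134962 for KLB, and ENSG00000077782, ENSG00000066468, ENSG00000068078 and ENSG00000160867 for FGFR1, FGFR2, FGFR3 and FGFR4.

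Counts were present for 27 AT libraries of 10 animals (10, 9 and 8 at the 3 time points in order) and for 21 SM libraries of 8 animals (6, 8 and 7), with 14455195 to 23940980 counts per library. Markers of the labelled tissues were where the labels put them: ADIPOQ ran from 1170 to 4600 CPM (counts scaled to the size of the library) in AT and from 0.874 to 128 CPM in SM, and the summed skeletal muscle fiber markers ran from 78.7 to 220 CPM in AT and from 63100 to 305000 CPM in SM. The 48 library identifiers in the labels fall into 3 number series whose meaning is not given, and these are called identifier series below.

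FGF21 is a hormone made mainly in the liver that acts on cells carrying both beta-klotho and an FGF receptor. KLB is a single-pass membrane protein that holds the tail of FGF21 and brings it to the receptor kinase; FGFR1 in its c splice form is the usual partner in adipocytes, FGFR2 and FGFR3 can also pair with KLB, and FGFR4 with KLB is best known in liver as the receptor of FGF19. In adipose tissue this complex passes its signal through FRS2 and the MAP kinases to genes of glucose uptake and lipid handling. Gene counts do not separate splice forms. In whole biopsies, fewer cells of a type and less RNA per cell cannot be told apart.

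KLB in AT was lower post-treatment than pre-treatment in each of the 9 animals sampled at both time points, and it was still lower at washout in each of the 8 animals that could be compared. Pre-treatment KLB ran from 52.6 CPM in animal 21866 to 140.0 CPM in animal 20275, with a median of 92.1 CPM. Post-treatment it ran from 22.1 to 92.0 CPM with a median of 52.4 CPM, and at washout from 26.5 to 94.3 CPM with a median of 61.5 CPM. The groups overlapped: 5 of the 9 post-treatment libraries and 3 of the 8 washout libraries lay below every pre-treatment library. The size of the drop differed widely between animals. Animal 20275 went from 140 to 22.1 CPM and animal 22130 from 113 to 40.3 CPM, while animal 26292 went from 96.8 to 92.0 CPM and animal 20456 from 87.4 to 82.9 CPM.

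The group means of KLB in AT were 93.6 ± 26.5 CPM pre-treatment (SD, n = 10), 55.8 ± 24.6 CPM post-treatment (n = 9) and 60.4 ± 29.1 CPM at washout (n = 8). The log2 fold change post-treatment was -0.75 ± 0.26 (SE) and the edgeR quasi-likelihood test with Benjamini-Hochberg adjustment over all genes gave an adjusted p of 0.0536, just outside the threshold of 0.05. At washout compared to pre-treatment the log2 fold change was -0.66 ± 0.26 (edgeR adjusted p = 0.0811), and washout compared to post-treatment gave 0.08 ± 0.27 (edgeR adjusted p = 0.834). A gene was called when its adjusted p was under 0.05 and its log2 fold change was beyond 0.26 in either direction, so KLB was called in no AT comparison of this fit. Its post-treatment difference did pass with DESeq2 (log2 fold change -0.76, adjusted p = 0.0158) and with voomWithQualityWeights of limma (-0.56, adjusted p = 0.047), and over 23 alternatives it ranged from -0.85 to -0.55 with adjusted p from 0.0158 to 0.138. Without the pre-treatment sample of animal 20275 it was -0.63 (edgeR adjusted p = 0.103), and it passed without animal 20456 (-0.83, edgeR adjusted p = 0.0452) or animal 23004 (-0.85, 0.0294).

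FGFR2 in AT fell post-treatment and rose again at washout. This receptor kinase is best known for its b splice form in epithelia and its c form in mesenchymal cells. Pre-treatment libraries ran from 19.9 to 45.8 CPM with a median of 38.1 CPM, post-treatment libraries from 7.21 to 31.8 CPM with a median of 12.1 CPM, and washout libraries from 20.5 to 53.0 CPM with a median of 36.6 CPM. All 9 animals were lower post-treatment, and 7 of 8 were higher at washout than post-treatment. Animal 23004 was the exception, with 37.1, 27.8 and 20.5 CPM at the 3 time points. The post-treatment values lay in 2 blocks: 6 animals were between 7.21 and 12.6 CPM, below every pre-treatment library, and 3 animals (23004, 20456 and 20261) were between 27.8 and 31.8 CPM. Animals 23004 and 20456 were the 2 with both libraries in the middle identifier series, and animal 20261 had both in the last.

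The mean of FGFR2 in AT was 36.7 ± 7.32 CPM pre-treatment, 16.4 ± 9.88 CPM post-treatment and 36.7 ± 11.7 CPM at washout (SD, n = 10, 9 and 8). The log2 fold change post-treatment was -1.26 ± 0.25 (edgeR adjusted p = 0.00526), a 2.39-fold decrease. At washout FGFR2 was 2.5-fold above post-treatment (log2 fold change 1.32 ± 0.27, edgeR adjusted p = 0.00105) and differed from pre-treatment by 0.06 ± 0.25 on the log2 scale (edgeR adjusted p = 0.884). FGFR2 was the only one of the 6 genes called post-treatment compared to pre-treatment in AT, where 15.5% of 13367 genes tested were called (8.49% lower). Both of its calls held in each of 23 alternatives, with log2 fold changes of -1.41 to -0.97 post-treatment and 1.04 to 1.57 at washout. Among these, the fit without a fold change limit could not lose a call, and leaving out animal 19832 removed no pair of AT libraries.

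FGFR1 in AT, the main partner of KLB for FGF21, showed little movement in the same libraries. It ran from 196 to 303 CPM pre-treatment (median 234 CPM), from 174 to 301 CPM post-treatment (median 266 CPM) and from 211 to 295 CPM at washout (median 253 CPM). The 3 ranges overlap almost fully, and 6 animals were higher and 3 lower post-treatment. Its log2 fold change post-treatment was 0.11 ± 0.09 (edgeR adjusted p = 0.437), with 0.09 ± 0.1 at washout compared to pre-treatment (adjusted p = 0.559) and -0.02 ± 0.1 at washout compared to post-treatment (adjusted p = 0.891). Over 23 alternatives the post-treatment value stayed between 0.06 and 0.17. FGFR1 was called in none of the 3 comparisons by edgeR, none of the 3 had an unadjusted p under 0.05, and it was called in none of the alternatives.

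**Figure D1:**
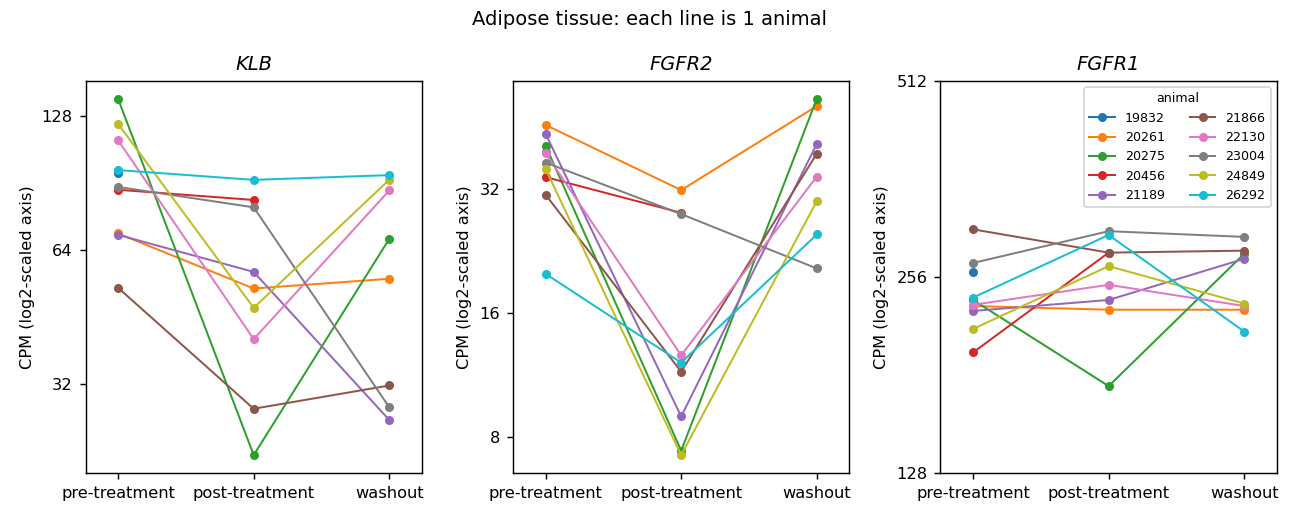
KLB, FGFR2 and FGFR1 in AT as CPM on a log2-scaled axis at the 3 time points, 1 line per animal; an animal without a library at a time point has no point there. All lines for KLB and FGFR2 go down from pre-treatment to post-treatment, 7 of 8 lines for FGFR2 go up at washout, and the lines for FGFR1 stay between 174 and 303 CPM.

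Because KLB and its receptors work as a complex, the ratio of their transcripts within a library was compared over time; such a ratio does not depend on library scaling, and only its change, not its level, is given because gene lengths differ. From pre-treatment to post-treatment in AT the log2 ratio of KLB to FGFR1 changed by -0.92 ± 0.72 (SD, n = 9 animals), lower in 9 of 9 animals. An exact sign-flip permutation test over animals, two-sided, gave p = 0.00391, the smallest that 9 animals allow, and 0.0352 after Benjamini-Hochberg adjustment over the 18 ratio tests of both tissues. FGFR2 to FGFR1 changed by -1.43 ± 0.77, also lower in 9 of 9 animals (exact permutation p = 0.00391, adjusted 0.0352). KLB to FGFR2 changed by 0.51 ± 0.65, higher in 8 of 9 animals (exact permutation p = 0.0156, adjusted 0.0402), so the transcript of FGFR2 lost more than that of KLB.

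At washout the ratios parted. KLB to FGFR1 stayed 1.75-fold below its pre-treatment value, a log2 change of -0.8 ± 0.69 (lower in 7 of 8 animals, exact permutation p = 0.0156, adjusted 0.0402), and changed by 0.16 ± 1.04 from post-treatment (exact permutation p = 0.672, adjusted 0.874). FGFR2 to FGFR1 rose by 1.43 ± 0.89 from post-treatment, higher in 7 of 8 animals (exact permutation p = 0.0156, adjusted 0.0402), and differed from pre-treatment by -0.08 ± 0.49 (exact permutation p = 0.68, adjusted 0.874). KLB to FGFR2 was lower at washout than pre-treatment in 8 of 8 animals, by -0.72 ± 0.5 (exact permutation p = 0.00781, the smallest that 8 animals allow, adjusted 0.0352). In SM no ratio passed, with exact permutation p between 0.172 and 0.969. The smallest possible p there was 0.0312 with 6 animals and 0.0156 with the 7 of washout compared to post-treatment. AT and SM ratios were adjusted together, and a SM ratio of 6 animals could not have passed alone, even at its smallest possible p. The adjusted test therefore could not decide whether a SM ratio differed from pre-treatment. With 1 animal left out the called AT ratios kept their direction, but most no longer passed after adjustment. Fewer animals also raise the smallest possible p, and the part of this in the loss was not tested.

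**Figure D2:**
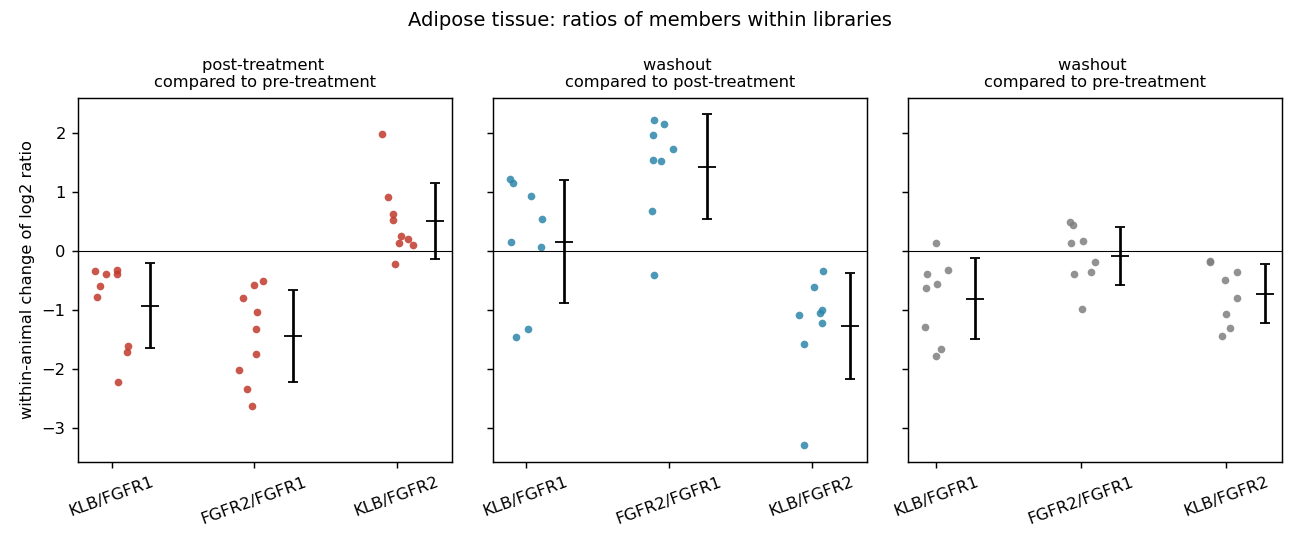
Within-animal change of the log2 ratio of KLB to FGFR1, FGFR2 to FGFR1 and KLB to FGFR2 in AT for the 3 comparisons of time points; points are animals (9, 8 and 8), and bars are the mean and SD. The first 2 ratios lie below 0 in all 9 animals post-treatment, and KLB to FGFR2 lies below 0 in all 8 animals in both washout comparisons.

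Animals with a larger drop of KLB in AT tended to have a larger drop of FGFR2. Over the 9 animals, Pearson's r between the post-treatment log2 changes was 0.728 (exact permutation p = 0.0231) and Spearman's rho 0.75 (exact permutation p = 0.0255); adjusted over the 3 pairs tested, these were 0.0684 and 0.0765, so the relation did not pass. Without the 2 animals farthest from the median KLB change, r was 0.672 over 7 animals. KLB and FGFR1 gave r = 0.678 (exact permutation p = 0.0456, adjusted 0.0684) and rho = 0.667 (exact permutation p = 0.0589, adjusted 0.0883). However, r was 0.231 without the 2 farthest animals, so this relation rested on at least 1 of them. Animal 20275 had the lowest log2 change of both genes (-2.66 for KLB, -0.44 for FGFR1), and animal 22130 had -1.49 and 0.11. FGFR1 and FGFR2 gave r = 0.499 (exact permutation p = 0.173, adjusted 0.173) and rho = 0.5 (exact permutation p = 0.178, adjusted 0.178). Within the last identifier series, 6 animals had both libraries, and r was 0.65 for KLB and FGFR2 (exact permutation p = 0.15), 0.668 for KLB and FGFR1 (0.143) and 0.291 for FGFR1 and FGFR2 (0.568), by the same test. Without animal 24849 all 3 pairs passed (r = 0.804 for KLB and FGFR1, 0.712 for KLB and FGFR2, 0.711 for FGFR1 and FGFR2, each with an adjusted exact permutation p of 0.0433), and without animal 21189 r was 0.922 for KLB and FGFR2 (adjusted exact permutation p = 0.0029). Values of 1 library enter both changes of a pair.

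The decreases of KLB and FGFR2 were also present inside the last identifier series. There, KLB changed by -0.95 and FGFR2 by -1.61 on the log2 scale from pre-treatment to post-treatment, each lower in 6 of 6 animals (exact permutation p = 0.0312, the smallest possible). FGFR1 changed by 0.02 in those 6 animals (exact permutation p = 0.938). In the middle series 2 animals had both libraries, and both were lower for KLB (mean change -0.11) and for FGFR2 (-0.35). These mean falls were smaller than those of the last series. With the series as a covariate, KLB post-treatment passed the threshold, with a log2 fold change of -0.71 (edgeR adjusted p = 0.0402).

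FGFR3 and FGFR4 were measured at low levels in AT. FGFR3, a receptor kinase best known in cartilage and epithelia, ran from 1.37 to 2.57 CPM pre-treatment, from 0.711 to 4.77 CPM post-treatment and from 1.5 to 4.75 CPM at washout, with medians of 1.73, 1.49 and 2.31 CPM. It was higher at washout than pre-treatment in 7 of 8 animals, with a log2 fold change of 0.52 ± 0.26 (edgeR adjusted p = 0.167), and gave 0.54 ± 0.26 against post-treatment (edgeR adjusted p = 0.109) and -0.02 ± 0.25 post-treatment against pre-treatment (edgeR adjusted p = 0.97). These differences did not pass, and the groups overlapped. Without the post-treatment and washout libraries of animal 24849, the difference between washout and post-treatment was 0.77 (edgeR adjusted p = 0.024).

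FGFR4 in AT had 3 counts or fewer in 9 of 27 libraries and 0 counts in 3 post-treatment libraries, where 3 counts correspond to 0.131 to 0.178 CPM. Its median was 0.229 CPM pre-treatment (0.0486 to 0.957), 0.251 CPM post-treatment (0.0 to 0.895) and 0.485 CPM at washout (0.116 to 3.11). At washout compared to post-treatment its log2 fold change was 1.3 ± 0.45 (edgeR adjusted p = 0.0269), and with FGFR2 it was 1 of 2 members called there, where 35.4% of genes tested were called (17.6% higher). The groups overlapped and 6 of 8 animals were higher. The call was lost in 5 analyses of all animals, among them voomWithQualityWeights (1.0, adjusted p = 0.161) and the identifier series as a covariate (0.66, edgeR adjusted p = 0.351), and without animal 21866, 24849 or 26292 (1.12, 1.06 and 1.18). Post-treatment compared to pre-treatment gave -0.74 ± 0.48 (edgeR adjusted p = 0.28), and washout compared to pre-treatment 0.55 ± 0.42 (edgeR adjusted p = 0.374). In that last comparison 20.5% of genes tested were called and 0 of the 6 members, with 1 of them, KLB, at an unadjusted p under 0.05 (0.0211); with DESeq2 and voomWithQualityWeights KLB was called (-0.66, adjusted p = 0.0416, and -0.63, adjusted p = 0.0202).

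The FGF21 transcript was scarce in AT: libraries held between 0 and 69 counts, and 8 of 27 held 3 counts or fewer. It ran from 0.106 to 1.94 CPM pre-treatment (median 0.62 CPM), from 0.0481 to 3.43 CPM post-treatment (median 0.207 CPM) and from 0.0 to 2.16 CPM at washout (median 0.285 CPM). The highest post-treatment and washout values both belonged to animal 24849, whose pre-treatment value was 0.166 CPM; the next highest were 0.691 and 0.4 CPM. Post-treatment 6 of 9 animals were lower, with a log2 fold change of -0.92 ± 0.53 (edgeR adjusted p = 0.224). Without the 2 later libraries of animal 24849 the log2 fold change was -1.83 post-treatment (edgeR adjusted p = 0.00619) and -1.56 at washout compared to pre-treatment (adjusted p = 0.0112), against -1.0 ± 0.58 with them (adjusted p = 0.229). Of the alternatives run, FGF21 was called in these 2 comparisons only where animal 24849 or these libraries of it were left out. Washout compared to post-treatment gave -0.08 ± 0.59 (edgeR adjusted p = 0.924).

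**Figure D3:**
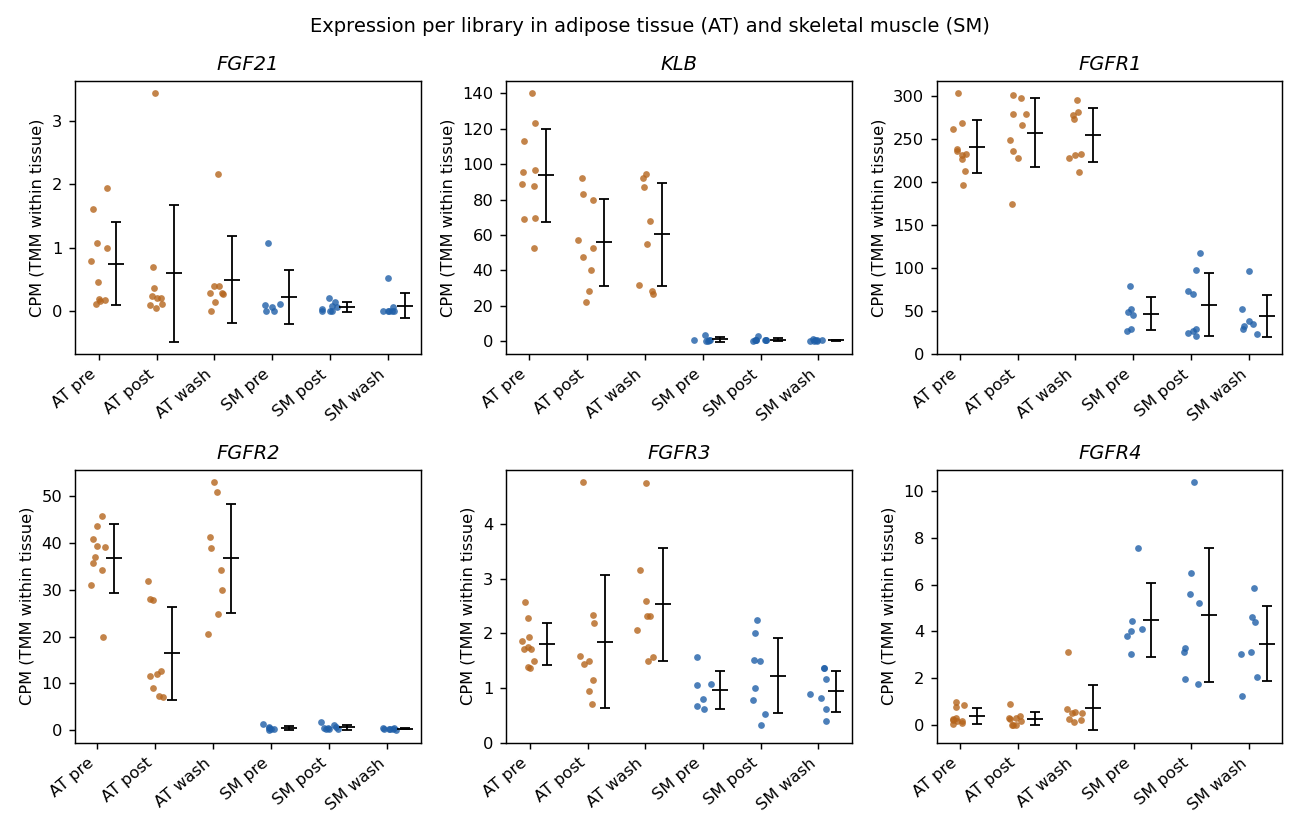
CPM of the 6 genes in each library, by tissue and time point, with the mean and SD beside the points; CPM are scaled within a tissue, and SD bars that reach below 0 belong to groups at low counts. KLB and FGFR2 are higher in all 27 AT libraries than in any SM library, FGFR1 is so at this scaling, and FGFR4 is higher in SM apart from 1 AT washout library at 3.11 CPM.

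SM held very little KLB and FGFR2. KLB ran from 0.0 to 3.34 CPM over 21 SM libraries with a median of 0.373 CPM, and FGFR2 from 0.0 to 1.7 CPM with a median of 0.367 CPM. These CPM are scaled within a tissue; with TMM factors over both tissues, each of the 27 AT libraries still lay above every SM library for KLB (17.1 to 109 against 0.0 to 4.6 CPM) and for FGFR2 (5.55 to 41.2 against 0.0 to 2.32 CPM). For FGFR1 all 27 did with the scaling within a tissue and 25 of 27 with the scaling over both (135 to 236 CPM in AT, 29.2 to 159 CPM in SM). In a fit of both tissues, KLB was higher in AT by a log2 fold change of 6.41 ± 0.56 pre-treatment (edgeR adjusted p = 1.58e-12), 5.55 ± 0.49 post-treatment (1.53e-12) and 6.42 ± 0.56 at washout (2.02e-12). For FGFR2 these were 5.49 ± 0.48, 3.72 ± 0.4 and 6.15 ± 0.49 (edgeR adjusted p at most 2.31e-10), and for FGFR1 1.6 ± 0.29, 1.39 ± 0.26 and 1.55 ± 0.28 (edgeR adjusted p at most 1.28e-05).

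FGFR4 was the receptor with the opposite tissue pattern. It ran from 1.24 to 10.4 CPM in SM with a median of 4.01 CPM, and 26 of 27 AT libraries lay below every SM library with either scaling. In AT compared to SM its log2 fold change was -4.39 ± 0.52 pre-treatment, -5.01 ± 0.55 post-treatment and -3.43 ± 0.54 at washout (edgeR adjusted p at most 7.57e-07). FGFR3 was not called in this fit (0.24 ± 0.33, -0.2 ± 0.31 and 0.66 ± 0.34), nor was FGF21 (1.63 ± 1.08, 2.17 ± 1.05 and 1.46 ± 1.11). Thus 4 of 6 members were called at each time point, where 76.4%, 76.5% and 76.5% of 13662 genes tested were called, a share near that of all genes. The calls of KLB, FGFR1, FGFR2 and FGFR4 held in all 15 alternatives of each time point, but FGFR3 depended on the scaling: with library size alone the median of all genes moved by 0.74, 0.71 and 0.96, and FGFR3 became 1.0, 0.53 and 1.6, with calls pre-treatment and at washout. Relative to the median of all genes it was 0.07, -0.34 and 0.43 with TMM and 0.1, -0.31 and 0.41 with library size alone.

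No member was called between time points in SM. Post-treatment compared to pre-treatment, edgeR called 0 of the 5 members tested and 0.0% of 12617 genes; 410 genes had an unadjusted p under 0.05, none of them a member, and DESeq2 and voomWithQualityWeights also called 0 genes. FGFR2 gave 0.62 ± 0.5 and was higher in 5 of 6 animals, KLB gave 0.26 ± 0.54, FGFR3 0.18 ± 0.31, FGFR1 0.04 ± 0.37 and FGFR4 -0.18 ± 0.33 on the log2 scale, each with an edgeR adjusted p of 1.0. For washout against post-treatment, where 0.19% of genes were called, FGFR2 gave -1.06 ± 0.52 and was lower in 6 of 7 animals (edgeR adjusted p = 0.309), and KLB gave -0.82 ± 0.58, also lower in 6 of 7 (adjusted p = 0.486). That value of KLB was -0.26 without animal 24849, which went from 2.84 to 0.222 CPM, and -1.38 without animal 20456 (edgeR adjusted p = 0.873 and 0.248). Over the whole study in SM, pre-treatment to washout, 0.0634% of genes were called and the log2 fold changes ran from -0.56 ± 0.64 for KLB to -0.03 ± 0.38 for FGFR1 (edgeR adjusted p from 0.681 to 0.98). The SE of FGFR1 post-treatment was 0.37 in SM and 0.09 in AT, and that of KLB 0.54 and 0.26.

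FGF21 in SM did not pass the filter on low counts. It had 3 counts or fewer in 19 of 21 libraries and 0 counts in 10, where 3 counts correspond to 0.123 to 0.232 CPM. The 2 libraries above that were the pre-treatment library of animal 19832 at 1.08 CPM and the washout library of animal 22130 at 0.529 CPM. A difference between time points was not detectable at this depth.

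Whether a member changed differently in AT and SM was tested as the interaction of tissue and time point over 12322 genes tested in both. FGFR2 from post-treatment to washout rose more in AT, with a difference of the log2 fold changes of 2.35 ± 0.59 (edgeR adjusted p = 0.00464). It was the only one of 5 members called there, against 21.9% of genes tested, and the call was lost with voomWithQualityWeights (1.8, adjusted p = 0.155). The SM side of this contrast rests on 3 to 40 counts per library post-treatment and 2 to 8 at washout. In SM the FGFR2 change was -1.06, and -0.6 without animal 24849. The SM libraries were 5 of the first and 3 of the last identifier series post-treatment, and 1 middle and 6 last at washout. The interaction was not fitted with the series as a covariate. From pre-treatment to post-treatment the difference for FGFR2 was -1.93 ± 0.56 (edgeR adjusted p = 0.198), with 0.0406% of genes called. For KLB the same difference was -1.03 ± 0.6 (edgeR adjusted p = 0.583), so the lower KLB of AT was not shown to differ from the change in SM. For the change from pre-treatment to washout 0 of 5 members were called by edgeR, against 17.0% of genes; none had an unadjusted p under 0.05, and voomWithQualityWeights called none of them either.

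**Figure D4:**
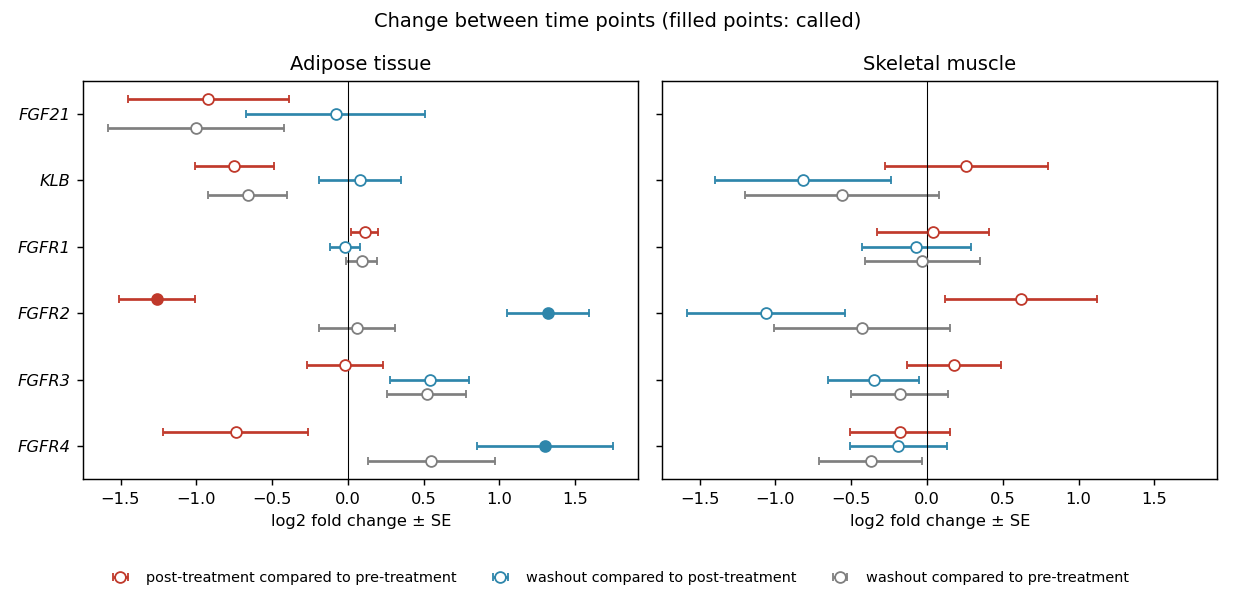
Log2 fold change with its SE for each gene and comparison of time points, in AT (left) and SM (right), from the edgeR fit of each tissue; filled points were called, and FGF21 in SM was not tested. The filled points are FGFR2 post-treatment and at washout compared to post-treatment, and FGFR4 at washout compared to post-treatment, all in AT.

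Ordered by mean CPM, KLB ran AT pre-treatment, AT washout, AT post-treatment and then the SM groups, and FGFR2 ran AT washout, AT pre-treatment, AT post-treatment and then SM. For KLB the AT washout and post-treatment levels did not differ beyond their spread, and for FGFR2 the AT washout and pre-treatment levels did not. FGFR1 ran AT post-treatment, washout, pre-treatment and then SM post-treatment, pre-treatment and washout, with no difference beyond the spread inside either tissue. FGFR4 ran SM post-treatment, pre-treatment and washout, then AT washout, pre-treatment and post-treatment. For FGFR3 the order between tissues turned with the scaling: with CPM scaled within a tissue each SM mean lay below each AT mean, and with TMM over both tissues the SM post-treatment mean of 1.72 ± 0.973 CPM (SD, n = 8) lay above the AT means pre- and post-treatment, 1.41 ± 0.301 and 1.42 ± 0.939 CPM. The FGF21 means were lower in SM with both scalings, within a spread larger than the differences.

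Levels of cell type markers moved beside these changes in AT. Of the 7 mature adipocyte markers in the table, 7 had a negative log2 fold change post-treatment and 3 (LEP, LPL and PLIN1) were called lower, and their summed level had a median of 29500 CPM pre-treatment (23400 to 49700), 25200 CPM post-treatment (14800 to 38600) and 25000 CPM at washout (15200 to 46400). Without the pre-treatment sample of animal 20275, 1 of the 7 was called. For comparison, 8.49% of all genes were called lower and 6.98% higher post-treatment, and 17.8% lower and 17.6% higher at washout compared to post-treatment. Of 12 macrophage markers 4 were called higher post-treatment (1 without that sample) and 12 lower at washout compared to post-treatment, with median sums of 1480, 3000 and 760 CPM at the 3 time points. Smooth muscle and pericyte markers went down and up as FGFR2 did: post-treatment 6 of 7 were negative with 1 called lower (0 without that sample), and at washout compared to post-treatment 7 of 7 were positive with 4 called higher (1 to 7 over the alternatives), at a median of 1.24 on the log2 scale. Their sums had medians of 2000, 1400 and 2020 CPM at the 3 time points (1240 to 2620, 949 to 1960 and 1230 to 4570). Of the 4 erythroid markers tested, 4 had a negative log2 fold change post-treatment, and 3 were called higher at washout compared to post-treatment (0 to 3 over the alternatives), with median sums of 2680, 852 and 5110 CPM. Of 10 endothelial markers 5 were called higher at washout compared to post-treatment, and of 12 progenitor and fibroblast markers 1 was called higher post-treatment (0 without that sample). Epithelial markers summed to between 8.45 and 228 CPM in AT. The part of these shifts in the KLB and FGFR2 results was not tested.

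The KLB and FGFR1 levels of SM libraries lay beside marker levels of other cell types. The pre- and post-treatment libraries of animal 24849 held the most KLB (3.34 and 2.84 CPM, against at most 1.08 CPM elsewhere) and the highest sums of mature adipocyte markers (2060 and 2260 CPM, against 366 to 1820 CPM elsewhere); 1 of these markers, GPD1, is abundant in SM itself, with a median of 1040 CPM. Without these 2 libraries the log2 fold change of KLB from pre-treatment to washout was 0.46 in place of -0.56 (edgeR adjusted p = 0.765). The 6 libraries with the most FGFR1 (69.3 to 117 CPM) were the 6 with the highest sums of progenitor and fibroblast markers (5280 to 18100 CPM), and the other SM libraries had 21.5 to 52.7 CPM of FGFR1 and sums of 341 to 2790 CPM. The highest values, 117 and 97.2 CPM, were those of the post-treatment libraries of animals 21189 and 21866. The part of such cells in the SM values was not tested.

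**Figure D5:**
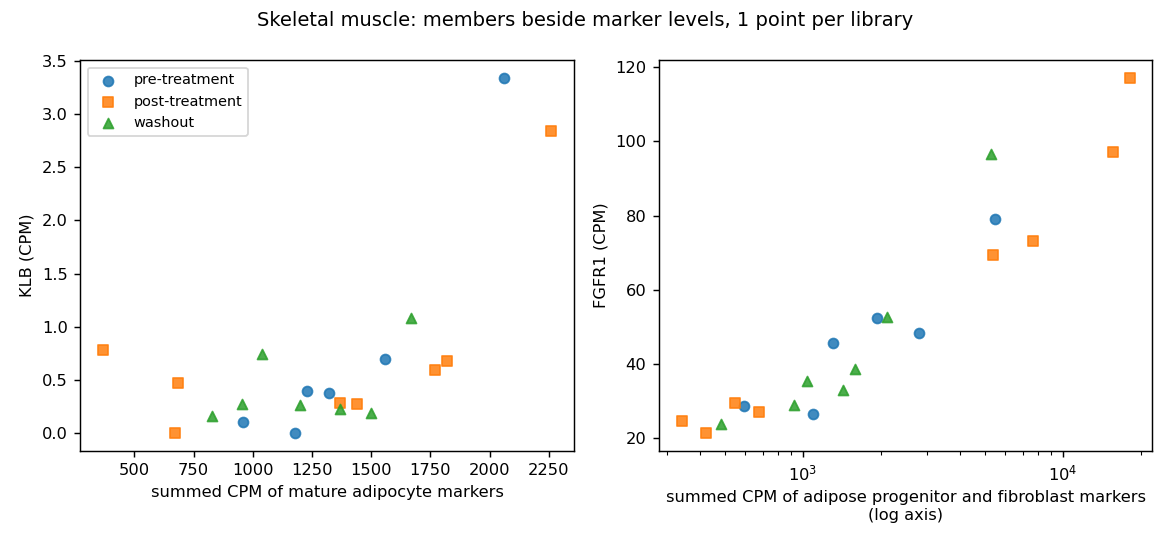
KLB against the summed CPM of 7 mature adipocyte markers (left) and FGFR1 against the summed CPM of 12 progenitor and fibroblast markers on a log axis (right), 1 point per SM library. The 2 highest KLB points, at 3.34 and 2.84 CPM, are the libraries of animal 24849, and FGFR1 of 69.3 CPM or more is seen with marker sums of 5280 CPM or more.

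The genes most like each member were ranked by Spearman's rho over the libraries of a tissue, as a description; libraries of 1 animal share that animal, and all share its depth and scaling. In AT, over 27 libraries, the genes close to KLB included ITSN1 (rho = 0.886), a scaffold of endocytosis, and ACSL1 (0.875), which activates long-chain fatty acids; the highest 1% of 12135 genes began at 0.734. FGFR2 was closest to CDO1 (0.864), a cysteine dioxygenase, TMEM178A (0.85) and LRRC7 (0.849). FGFR1 was closest to CAPN5 (0.815), ST5 (0.812) and CHST10 (0.765), FGFR3 to ACAD8 (0.744), CYP2D6 (0.726) and APC2 (0.704), FGFR4 to SLC44A4 (0.637), POP1 (0.622) and SMCO3 (0.603), and FGF21 to MUL1 (0.724), NEURL1 (0.683) and PREB (0.681). Among the members in AT, rho was 0.24 for KLB and FGFR2 and -0.25 for KLB and FGFR1. After removal of the time point means ITSN1 had a rho of 0.872 with KLB, at rank 1, and CDO1 0.672 with FGFR2. CDO1 was then at rank 34 for FGFR2, TMEM178A at rank 36 and LRRC7 at rank 7.

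In SM, over 21 libraries, KLB was closest to AGPAT2 (rho = 0.746), an enzyme of triglyceride synthesis, LEP (0.728), the adipocyte hormone leptin, and TF (0.685). FGFR2 was closest to NOSTRIN (0.788), PPARG (0.782), the nuclear receptor of adipocyte differentiation, and CDO1 (0.774). In AT, CDO1 was closest to it only before the time point means were removed. FGFR1 was closest to DAPK1 (0.987), CALHM2 (0.981) and DENND2A (0.975), where the highest 1% of 11140 genes began at 0.936. FGFR3 was closest to ABCA8 (0.778), STARD8 (0.768) and TXLNG (0.766), and FGFR4 to SYTL2 (0.851), HAAO (0.848) and VWA1 (0.823). KLB and FGFR2 had a rho of 0.658 with each other in SM.

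The rest of the pathway was read from 6 lists of genes. Among the other FGF ligands, 6 of 16 in the table passed the filter in AT; 0 were called post-treatment by edgeR, with none at an unadjusted p under 0.05 and none called by DESeq2 or voomWithQualityWeights. FGF10, a paracrine ligand of FGFR2b made by adipose stroma, gave 0.99 ± 0.52 (edgeR adjusted p = 0.18). FGF9 was the only ligand called at washout compared to post-treatment, with 1.02 ± 0.35 (edgeR adjusted p = 0.0257). Over the alternatives, 0 to 1 ligands were called higher there and 0 to 1 lower. For all genes tested, 15.5% were called post-treatment. At washout compared to post-treatment 17.6% were called higher and 17.8% lower. Of the klotho relatives, KL gave -0.27 ± 0.54 and LCTL 0.01 ± 0.44 post-treatment (edgeR adjusted p = 0.763 and 0.991).

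Accessory receptor genes, which include the syndecans and glypicans whose heparan sulfate chains take part in FGF binding, formed a list of their own. Of 15 klotho family and accessory genes tested, 6 were called higher and 1 lower post-treatment, with a median log2 fold change of 0.5 against 0.03 for all genes; 6.98% of genes tested were called higher and 8.49% lower. Without the pre-treatment sample of animal 20275 only 2 of the 6 were called higher. CDH2, N-cadherin, rose from 1.29 ± 0.621 to 2.78 ± 1.61 CPM (SD, n = 10 and 9; edgeR log2 fold change 1.03, adjusted p = 0.0461) but was called in only 10 of 22 alternatives, and not without that sample. SDC1, syndecan 1, rose from 7.52 ± 3.52 to 15.4 ± 9.04 CPM (edgeR adjusted p = 0.018), and GPC1, glypican 1, fell from 123 ± 35.4 to 65.3 ± 27.9 CPM (edgeR adjusted p = 0.0117). From post-treatment to washout 8 of 15 were called lower, with 17.8% of all genes lower, and among them SDC1 fell by 1.21, CDH2 by 1.15 and GPC4 by 1.13 on the log2 scale (edgeR adjusted p = 0.00179, 0.0173 and 0.0112); the call of CDH2 there held in 17 of 22 alternatives. From pre-treatment to washout edgeR called 0 of 15, against 20.5% of all genes, with 2 of the 15 at an unadjusted p under 0.05. DESeq2 called 1 of them and voomWithQualityWeights 3.

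Of 19 adaptors and kinases of FGF receptor signaling, 0 were called higher and 2 lower post-treatment, near the 8.49% of all genes called lower: PIK3R1, a regulatory subunit of PI3 kinase, fell from 350 ± 101 to 237 ± 68.9 CPM and HRAS from 28.4 ± 5.12 to 20.9 ± 3.04 CPM (edgeR adjusted p = 0.0451 and 0.014). Without the pre-treatment sample of animal 20275 only HRAS was called. At washout the list had 2 genes called higher and 9 lower compared to post-treatment (17.6% of all genes were higher and 17.8% lower), and 2 higher and 8 lower compared to pre-treatment (12.5% of all genes were higher and 7.96% lower). CBL, the ubiquitin ligase that sends active receptors to degradation, went from 47.1 ± 8.48 CPM pre-treatment to 19.5 ± 8.12 CPM at washout (edgeR log2 fold change -1.35, adjusted p = 5.22e-06), and PTPN11, the phosphatase SHP2, from 123 ± 33.1 to 46.2 ± 25.9 CPM (-1.46, adjusted p = 7.08e-05). BRAF fell by 0.85 from post-treatment to washout (edgeR adjusted p = 5.6e-05), while FRS3, an adaptor that docks on FGF receptors, rose from 3.76 ± 1.19 CPM pre-treatment to 7.81 ± 2.28 CPM at washout (edgeR adjusted p = 0.000345).

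Of 15 genes listed as feedback inhibitors and ETS targets of FGF receptor signaling, 3 were called higher and 1 lower post-treatment. The median of the list in AT was 0.27 on the log2 scale, and 6.98% of all genes were called higher and 8.49% lower. In SM, where none was called, the median of the same 15 genes was 0.22, with 11 positive, as many as in AT. DUSP5, a phosphatase of ERK, rose from 3.26 ± 1.14 to 5.96 ± 3.25 CPM (edgeR adjusted p = 0.0482, called in only 8 of 23 alternatives), ETV5 from 21.2 ± 5.26 to 28.8 ± 8.72 CPM (edgeR adjusted p = 0.0225), DUSP6 had a log2 fold change of 0.37, and SPRY3 fell from 9.56 ± 2.27 to 6.68 ± 1.34 CPM (edgeR adjusted p = 0.0157). Without the pre-treatment sample of animal 20275 none of the 3 increases was called. From post-treatment to washout 1 was called higher and 4 lower, among them IL17RD (SEF), which fell by 1.24, SPRED1 by 0.76 and ETV5 by 0.65 on the log2 scale (edgeR adjusted p = 0.00338, 0.00348 and 0.00121). IL17RD was also the only one called at washout compared to pre-treatment, where it fell by 0.97 (edgeR adjusted p = 0.0198). That call held in 20 of 23 alternatives. From post-treatment to washout the alternatives had 0 to 2 of the list called higher and 3 to 5 lower. Among all genes, 17.6% were called higher and 17.8% lower in that comparison. At washout compared to pre-treatment 12.5% of all genes were called higher and 7.96% lower.

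Of 8 transcription factors that act on FGF21 or KLB, NR1H3 (LXR alpha) rose post-treatment from 26.9 ± 6.14 to 68.0 ± 33.3 CPM (edgeR adjusted p = 0.00178) and PPARG, the master regulator of adipocytes, fell from 309 ± 63.4 to 195 ± 53.1 CPM (edgeR adjusted p = 0.0111). From post-treatment to washout NR1H3 fell by 1.02 on the log2 scale (edgeR adjusted p = 0.000877), and PPARG and MLXIPL (ChREBP) rose by 0.49 and 1.41 (edgeR adjusted p = 0.0303 and 0.000253). The PPARG increase was called in 15 of 23 alternatives and not without animal 20275, 21866, 22130 or 24849 (0.38 to 0.44), and that of MLXIPL in 23 of 23. MLXIPL was the only one called at washout compared to pre-treatment, from 59.9 ± 16.3 to 127 ± 49.1 CPM (edgeR adjusted p = 0.00427). For comparison, 15.5% of all genes were called post-treatment. The share was 35.4% at washout compared to post-treatment and 20.5% at washout compared to pre-treatment.

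Of 8 genes of FGF21 processing and adipose targets, 1 was called higher and 2 lower post-treatment, where 6.98% of all genes were higher and 8.49% lower. DPP4, a protease that trims the start of FGF21, rose from 59.1 ± 16.1 to 105 ± 37.0 CPM (edgeR adjusted p = 0.015) and fell by 0.76 on the log2 scale at washout (adjusted p = 0.00876). LPIN1, a phosphatidate phosphatase of triglyceride synthesis, fell from 983 ± 331 to 430 ± 263 CPM and rose to 1140 ± 530 CPM at washout (edgeR adjusted p = 0.00549 and 0.000641), and LPL, lipoprotein lipase, fell from 10500 ± 3900 to 6380 ± 1840 CPM (edgeR adjusted p = 0.0375) but was not called without the pre-treatment sample of animal 20275. PPARGC1A rose from 3.62 ± 1.48 CPM post-treatment to 8.33 ± 7.52 CPM at washout (edgeR adjusted p = 0.0134). From pre-treatment to washout edgeR called 0 of the 8, against 20.5% of all genes, with 2 of the 8 at an unadjusted p under 0.05. DESeq2 called 1 of them and voomWithQualityWeights 2.

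In SM edgeR called 0 of the 70 list genes tested in each comparison of time points. Among all 12617 genes it called 0.0% post-treatment compared to pre-treatment. The share was 0.19% at washout compared to post-treatment and 0.0634% at washout compared to pre-treatment. In the same order, 410, 2181 and 1691 of all genes had an unadjusted p under 0.05. Post-treatment compared to pre-treatment 5 had an unadjusted p under 0.05, and neither DESeq2 nor voomWithQualityWeights called any. For washout compared to post-treatment the list count at an unadjusted p under 0.05 was 14, with 4 called by DESeq2 and 0 by voomWithQualityWeights. For washout compared to pre-treatment it was 9, with 3 and 6 called. The shares of all genes called by these methods at washout are not given here, so their list counts cannot be set against them.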

How the data were processed

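RNA was measured in biopsies of AT and SM at 3 time points. The authors prepared stranded mRNA libraries, sequenced paired-end reads of 50 nucleotides, used STAR and the MacaM genome for alignment and deposited raw counts per gene; the counting tool is not given in the sources used here. The deposited counts held 16103 entries, of which 70 repeated a gene and were dropped. The labels name 51 samples; 3 of SM are not analysed here because no column of counts carries their names. Totals per library ranged from 14455195 to 23940980, so genes at a few counts are limited by counting error and the others by the spread between animals.

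A gene entered the fit of a tissue when 10% or more of its libraries reached 0.5 CPM. The fit was made in edgeR 4.0.16 (R 4.3.3), by robust quasi-likelihood tests with TMM and a model of time point and animal, 1 fit per tissue. Differences between tissues were tested over all libraries: the interaction had each animal's level free in each tissue, and the comparison of levels had animal as a term. CPM were scaled by TMM within a tissue unless said otherwise. Adjusted p-values are Benjamini-Hochberg values over all genes of a fit. For ratios and correlations within animals, a prior count of 2 was added before log2 CPM were taken, and exact permutation tests were run in Python 3.11.15 (SciPy 1.17.1, pandas 2.3.3, NumPy 2.4.6; figures by matplotlib 3.10.9).

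Animal identity came from the labels. As a check, libraries of 1 animal had a median r of 0.352 over 25 pairs in AT and 0.28 over 19 in SM after removal of time point means, against -0.0344 and -0.0464 for pairs of different animals.

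The members, gene lists and tests were chosen with earlier results of these data known. Named were the members, the up to 3 genes per pathway list and AT comparison with the largest change among those called at a mean of at least 1 CPM, and the 3 genes with the highest rho to each member, of which 1 is not reported here. KL, LCTL, FGF9, FGF10 and DUSP6 were named after their values were seen. List genes outside the table were not analysed here. The fits were also run on simulated counts with some genes raised. These counts held no differences between animals, and those for the interaction had the same spread for every gene. The runs therefore did not test the animal term. The alternatives were DESeq2 1.42.0, voomWithQualityWeights of limma 3.58.1, other scalings and filters, a model without animal, fits of 2 time points at a time, the identifier series as a covariate, no fold change limit, each animal left out, omission of the AT library of animal 20275 from before treatment, and a prior count of 0.5. Chosen after seeing the data were edgeR's earlier quasi-likelihood method, the fits without libraries of animal 24849, and CPM with TMM over both tissues.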

Additional observations from a re-analysis of the deposited data

Results flagged for a closer look

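In 36 groups of libraries (6 genes, 6 groups each), 11 had 1 library far above the others by Dixon's test. The rate of about 1 in 20 groups set for that test assumes normally distributed values. Many of these groups hold low and skewed counts, so the number flagged cannot be set against that rate. Animal 24849 held 7 of them. In AT its FGF21 was 3.43 CPM post-treatment, next to 0.691 CPM in the second highest library, and 2.16 CPM at washout, next to 0.4 CPM. Its FGFR4 in AT was 0.895 CPM post-treatment (second highest 0.362) and 3.11 CPM at washout (0.659), and its FGFR3 post-treatment was 4.77 CPM (2.33). Its KLB in SM was 3.34 CPM pre-treatment (0.697) and 2.84 CPM post-treatment (0.777), beside the highest sums of mature adipocyte markers in SM.

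The other high libraries were in SM. FGF21 was 1.08 CPM pre-treatment in animal 19832 (second highest 0.113) and 0.529 CPM at washout in animal 22130 (0.0679), FGFR1 was 96.5 CPM at washout in animal 22130 (52.7), beside a sum of progenitor and fibroblast markers of 5280 CPM, and FGFR4 was 7.59 CPM pre-treatment in animal 20275 (4.43).

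A difference between the tissues was found for FGFR2: its change from post-treatment to washout was higher in AT than in SM by 2.35 on the log2 scale (edgeR interaction, adjusted p = 0.00464). The call was lost with voomWithQualityWeights (1.8, adjusted p = 0.155), and FGFR2 in SM is limited by counts.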

How the results depend on the processing

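Values are log2 fold changes unless said otherwise, adjusted p in parentheses, and the cause of a change was not tested. FGFR2 in AT kept both calls in 23 of 23 alternatives, and 0 of 291 alternative values of members in SM were called. Some alternatives could not take a call away: without a fold change limit the fit is the same, and animal 19832 had only a pre-treatment AT library. In SM, DESeq2 gave no adjusted p for KLB and FGFR2 at washout compared to post-treatment, and these values counted as not called. KLB in AT post-treatment passed with at least 10 counts in every library (-0.76, 0.0449), voomWithQualityWeights (-0.56, 0.047), DESeq2 (-0.76, 0.0158) and the identifier series as a covariate (-0.71, 0.0402). KLB at washout compared to pre-treatment passed with voomWithQualityWeights (-0.63, 0.0202), DESeq2 (-0.66, 0.0416), the series (-0.91, 0.0133) and only these 2 time points (-0.74, 0.00606). FGFR4 in AT at washout compared to post-treatment lost its call with voomWithQualityWeights (1.0, 0.161), the series (0.66, 0.351), 2 time points (1.25, 0.0796), the earlier quasi-likelihood method (1.26, 0.0626) and without the later libraries of animal 24849 (1.05, 0.137). Without those libraries FGF21 passed post-treatment (-1.83, 0.00619) and at washout (-1.56, 0.0112), as did FGFR3 at washout compared to post-treatment (0.77, 0.024). The FGFR2 interaction from post-treatment to washout was 1.8 (0.155) with voomWithQualityWeights.

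Without the replicate block, that is without animal in the model, FGFR4 in AT at washout compared to post-treatment was 1.54 (0.061) and lost its call, and FGF21 in AT compared to SM post-treatment was 2.33 (0.0321) and gained one. Signs turned, without a call, for FGFR3 in AT post-treatment (0.04), KLB and FGFR4 in SM post-treatment (-0.13 and 0.09), the post-treatment interaction of FGFR1 (-0.24) and the interaction of KLB at washout compared to pre-treatment (0.32). Of 66 values, 59 kept direction and call, and the count of genes called in AT post-treatment was 1420 in place of 2068.

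With library size alone, FGFR3 in AT compared to SM was 1.0 (0.012), 0.53 and 1.6 (0.000174) at the 3 time points, and FGF21 post-treatment was 2.92 (0.0111); with voomWithQualityWeights FGF21 at washout was 2.04 (0.0464). Other turns of sign were of values that were not called. FGFR3 in AT post-treatment was 0.02 with library size alone, 0.01 with the series and 0.03 without the pre-treatment sample of animal 20275. From post-treatment to washout in AT, FGF21 was 0.36 with voomWithQualityWeights, 0.06 with DESeq2, 0.02 with the earlier method and 0.27 without the libraries of animal 24849, KLB was -0.07, -0.2 and -0.04 with voomWithQualityWeights, the series and without animal 24849, and FGFR1 was 0.06, 0.02, 0.02 and 0.0037 with library size alone, the series, 2 time points and without animal 24849. FGFR2 in AT from pre-treatment to washout was -0.09 with the series and -0.02 with 2 time points. In SM, voomWithQualityWeights gave FGFR1 -0.28 post-treatment and 0.06 from post-treatment to washout, and FGFR4 0.09 there. Without the SM libraries of animal 24849, FGFR1 and FGFR4 were 0.11 and 0.12 from post-treatment to washout, and KLB, FGFR1 and FGFR2 were 0.46, 0.24 and 0.29 from pre-treatment to washout. FGFR1 there was 0.0015 with DESeq2 size factors and 0.0013 with DESeq2, and FGFR3 0.03 with the series. The interaction of FGFR1 from post-treatment to washout was -0.12 with voomWithQualityWeights, and that of KLB from pre-treatment to washout 0.06 with library size alone. With a prior count of 0.5 the SM ratios of KLB to FGFR2 post-treatment and of FGFR2 to FGFR1 at washout compared to pre-treatment were 0.01 and 0.03.

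With each animal left out in turn, AT post-treatment values ran from -1.83 to -0.58 for FGF21 (called without animal 24849), -0.85 to -0.55 for KLB (called without 20456 or 23004) and -0.27 to 0.09 for FGFR3. From post-treatment to washout they ran from -0.21 to 0.27 for FGF21, -0.06 to 0.29 for KLB, -0.11 to 0.03 for FGFR1, 0.33 to 0.77 for FGFR3 (called without 24849) and 1.06 to 1.55 for FGFR4 (lost without 21866, 24849 or 26292), and from pre-treatment to washout from -1.56 to -0.72 for FGF21 (called without 24849) and -0.0037 to 0.16 for FGFR2. In SM they ran from -0.15 to 0.27 for FGFR1, -0.07 to 0.36 for FGFR3 and -0.46 to 0.02 for FGFR4 post-treatment, from -0.44 to 0.14 for FGFR1 and -0.48 to 0.12 for FGFR4 from post-treatment to washout, and from -0.94 to 0.46 for KLB, -0.44 to 0.24 for FGFR1 and -0.76 to 0.29 for FGFR2 from pre-treatment to washout. Interactions ran from -0.22 to 0.24 for FGFR1 and -0.56 to 0.06 for FGFR3 post-treatment, from -0.22 to 0.41 for FGFR1 and 0.98 to 1.94 for FGFR4 (called without 20261 or 23004) from post-treatment to washout, and from -1.2 to 0.33 for KLB, -0.19 to 0.47 for FGFR1 and -0.21 to 0.78 for FGFR2 from pre-treatment to washout. In AT compared to SM, FGF21 ran from 0.93 to 3.19, 1.21 to 2.94 and 0.53 to 4.56 at the 3 time points (called without 19832 at the first 2, and without 22130 at the last 2), and FGFR3 from -0.45 to 0.08 post-treatment and 0.49 to 0.82 at washout (called without 22130).

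Ratios in AT ran post-treatment from -1.0 to -0.76 (KLB to FGFR1), -1.55 to -1.29 (FGFR2 to FGFR1) and 0.33 to 0.6 (KLB to FGFR2), from post-treatment to washout from 1.32 to 1.69 (FGFR2 to FGFR1) and -1.4 to -0.98 (KLB to FGFR2), and from pre-treatment to washout from -0.94 to -0.67, -0.17 to 0.04 and -0.8 to -0.62. Most adjusted p of the called ratios were then above 0.05. The part of the smaller number of animals in this was not tested. In SM the ratios ran from -0.24 to 0.14 (KLB to FGFR2) post-treatment, -0.18 to 0.18 (KLB to FGFR2) from post-treatment to washout, and -0.55 to 0.07, -0.41 to 0.04 and -0.39 to 0.13 from pre-treatment to washout. The correlations ran from 0.256 to 0.804 (KLB and FGFR1), 0.648 to 0.922 (KLB and FGFR2) and 0.253 to 0.711 (FGFR1 and FGFR2), and all 3 passed without animal 24849 (adjusted exact permutation p = 0.0433).

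The number of genes called in AT post-treatment ranged from 801 to 2607 over the alternatives, with 801 without animal 22130, 998 without 20275, 1323 without 21189 and 1164 without the pre-treatment sample of animal 20275. In SM the 24 genes called from post-treatment to washout became between 0 and 2650, and the 8 from pre-treatment to washout between 0 and 1355, the highest in each case with the series as a covariate. The 5 genes of the post-treatment interaction became 0 with library size alone and 24 with voomWithQualityWeights, and the 2098 of the interaction from pre-treatment to washout became 3707 with voomWithQualityWeights. FGF21 in both tissues, FGFR4 in AT and KLB and FGFR2 in SM are limited by counts.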
